A study of Mus musculus with 20 samples.

Results

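Pdx1, Cdx1, Cdx2, Gata4, Gata6, Hnf4a, Hnf4g and Foxa2 are transcription factors of the endoderm and of position along the gut, and their RNA levels were followed here across 5 mouse organs. They are the 8 genes, of 55401 in the count table, whose symbol is one of these names, and each symbol matched 1 row. RNA came from heart, kidney, spleen, liver and small intestine of 8-week-old female mice, either wild type (WT) or homozygous for a CRISPR/Cas9 deletion of exons 3 and 4 of Nsun6 made in C57BL/6J zygotes (KO). Nsun6 encodes a methyltransferase that places 5-methylcytosine in RNA. Each organ had 2 WT and 2 KO libraries, numbered replicate 1 and 2, so that there were 20 libraries in all. No mouse was treated, the deletion was in every cell of the KO animals, and neither the animal behind each library nor the segment of the small intestine was given. Because tissue and not sorted cells was ground, fewer cells of a type and less RNA per cell cannot be told apart in any value below.

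In the embryo the gut tube is divided along its length by homeobox, GATA and forkhead factors, and several of them stay on in the adult epithelium. Pdx1 marks the duodenum and the pancreas, Cdx1 and Cdx2 mark the intestine beyond the stomach, and Gata4 is found in the proximal but not the most distal small intestine. HNF4 factors are nuclear receptors that drive genes of lipid handling in hepatocytes and enterocytes, and Foxa2 is a forkhead factor needed for definitive endoderm and kept in the liver.

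Total counts per library ranged from 15897446 to 44508197, with a median of 28513950. Levels are given as CPM, counts scaled by library size and TMM factor, and as TPM, which also divides by exon length, where genes are compared with each other. Each sample label was set beside the marker genes of its organ. The summed level of 10 epithelial genes was 20294 to 25209 CPM in the 4 small intestine libraries and at most 656 CPM in any other library. Hepatocyte genes summed to at least 184293 CPM in the liver, nephron genes to at least 25791 CPM in the kidney, cardiomyocyte genes to at least 57751 CPM in the heart and immune genes to at least 3663 CPM in the spleen. A few libraries carried RNA of other organs. Hepatocyte genes summed to 3450 CPM in spleen WT replicate 2 and to 8.73, 126 and 181 CPM in the other spleen libraries. Cardiomyocyte genes summed to 407 CPM in small intestine KO replicate 1 against 8.92, 19.4 and 28.6 CPM in WT replicate 1, WT replicate 2 and KO replicate 2. Nephron genes summed to 47.2 CPM in spleen KO replicate 1, led by Kap at 34.02 CPM, and to 2.79, 2.29 and 2.30 CPM in WT replicate 1, WT replicate 2 and KO replicate 2.

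Nsun6, the deleted gene, was counted over its whole length and so these counts do not test the deletion of its exons 3 and 4. In the small intestine it was at 9.63 and 6.09 CPM in WT replicates 1 and 2 and at 9.67 and 5.16 CPM in KO replicates 1 and 2. In the kidney it was at 5.57 and 5.98 CPM in WT and 3.95 and 3.33 CPM in KO, and in the heart at 6.95 and 6.70 CPM in WT and 5.998 and 5.53 CPM in KO. In the liver, 7.23 and 4.79 CPM in WT stood beside 3.95 and 4.54 CPM in KO, and in the spleen 6.10 and 4.39 CPM in WT beside 4.04 and 6.62 CPM in KO. The genotypes did not overlap in the liver (nearest values 4.79 and 4.54 CPM), kidney and heart, and they overlapped in the small intestine and spleen. With 2 libraries per genotype such gaps can arise without a difference, and no test of Nsun6 is given here.

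Pdx1 and Cdx2 are neighbours in the ParaHox cluster, and they behaved in opposite ways between the small intestine libraries described below, so the bases just before both genes are shown first. On GRCm38, Pdx1 (ENSMUSG00000029644) lies on the plus strand of chromosome 5 from 147269959 to 147275848 and Cdx2 (ENSMUSG00000029646) on the minus strand from 147300805 to 147307270, with 24956 bases between them. The sequences come from the RefSeq promoter table for GRCm38.p6 and end at the base before the start of each gene, chr5:147269847-147269958 on the plus strand for Pdx1 and chr5:147307271-147307499 on the minus strand for Cdx2. Capitals mark the CCAAT box on the opposite strand in both windows and, in the Cdx2 window only, the forkhead core TGTTTAC on the opposite strand.
Pdx1: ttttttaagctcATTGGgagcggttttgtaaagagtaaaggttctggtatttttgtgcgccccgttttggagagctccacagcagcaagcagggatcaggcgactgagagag
Cdx2: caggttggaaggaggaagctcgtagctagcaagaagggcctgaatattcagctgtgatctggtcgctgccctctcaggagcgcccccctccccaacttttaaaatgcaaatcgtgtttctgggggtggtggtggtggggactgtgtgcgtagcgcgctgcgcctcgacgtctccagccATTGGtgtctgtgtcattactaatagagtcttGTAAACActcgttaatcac

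On either strand, the CCAAT box occurred in 15.2% of 32817 RefSeq windows cut to the 112 bases of the Pdx1 window and in 32.0% of those cut to the 229 bases of the Cdx2 window. The forkhead letters TGTTTAC occurred in 2.90% of windows of the Cdx2 length. The other motifs searched, given next, were found in neither window on either strand. Among windows of the Cdx2 length the letters bound by GATA factors in many genes, AGATAA, occur in 9.47%. Those of an HNF4 site, CAAAGTCCA, occur in 0.344%, and those of the E-box, CACGTG, in 5.29%. The letters of a caudal site, TTTATG, occur in 10.2% of these windows and those of a homeodomain site, TAATTA, in 4.67%. The marked motifs do not overlap. The motifs were chosen after the sequences had been seen, and a match describes letters only.

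The first comparison set the small intestine against each other organ. Cdx1, Cdx2 and Pdx1, the 3 homeobox members, were counted almost only in the small intestine, and Hnf4g was by far highest there. Hnf4a was shared by small intestine, liver and kidney, and Foxa2 was highest in the liver. Gata6 was shared by small intestine and heart, with lower levels in the liver. Gata4 was high in the heart and in the replicate 2 libraries of the small intestine, whereas the replicate 1 libraries lay below every liver library. By edgeR's quasi-likelihood test, where a call needs a difference of more than 2-fold and an adjusted p (Benjamini-Hochberg) under 0.1, 6 of 8 members differed from the liver, where 46.3% of all tested genes were called. Against the spleen 8 of 8 members were called, beside 49.5% of all genes, against the kidney 7 of 8, beside 45.7%, and against the heart 6 of 8, beside 53.5%. All of these calls were higher in the small intestine except that of Foxa2 against the liver. Since about as many genes as not differ between organs, the levels below say more than the counts of calls.

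**Figure D1:**
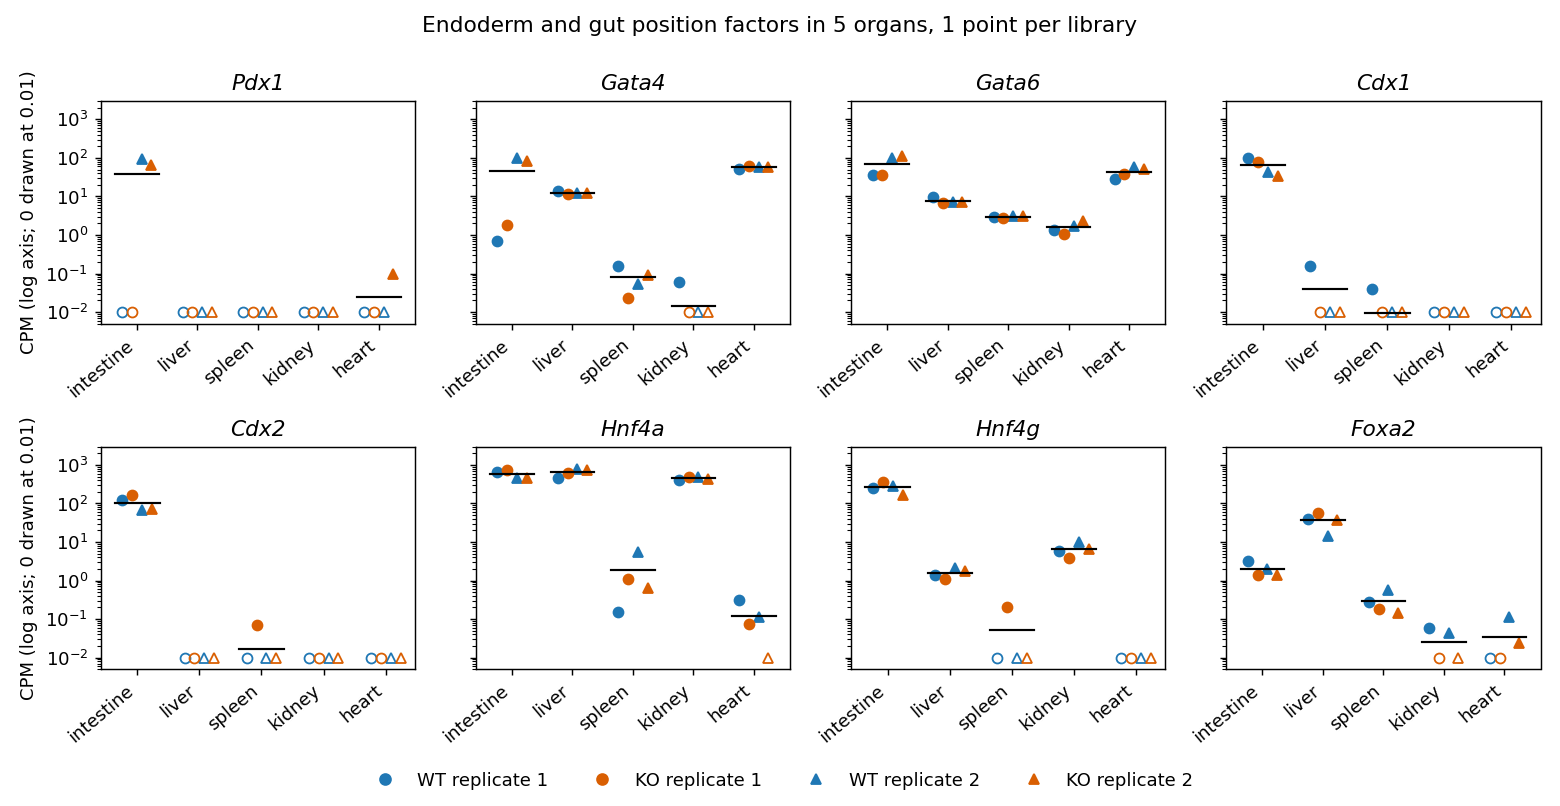
Levels of the 8 genes in CPM (log axis) in each library of 5 organs, coloured by genotype, with circles for replicate 1, triangles for replicate 2, bars for the mean of 4 libraries and open symbols for libraries at 0 counts. Cdx1, Cdx2 and Pdx1 stand in the small intestine, Hnf4a at 409 to 781 CPM in 3 organs, and the small intestine points of Pdx1 and Gata4 split by replicate number.

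Cdx2, a homeobox factor that gives the intestinal epithelium its identity, was at 121, 67.8, 165 and 69.98 CPM in small intestine WT replicate 1, WT replicate 2, KO replicate 1 and KO replicate 2. It had 0 counts in every liver, kidney and heart library and 3 counts in 1 spleen library, KO replicate 1. With the floor of 3 counts in each library that a count of 0 allows, its mean level of 106 ± 46.2 CPM (SD, n = 4) was at least 800-fold higher than in the liver, at least 984-fold higher than in the kidney and at least 750-fold higher than in the heart. Against the spleen the ratio of summed counts was 6374, with an exact 95% interval from 2181 to 30914. Intervals and floors of this kind cover counting error only.

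Cdx1 (ENSMUSG00000024619, chromosome 18), the close relative of Cdx2 that is known for crypt cells, was at 98.5, 43.4, 79.6 and 34.9 CPM in the same order of libraries. It had 4 counts in liver WT replicate 1, 2 counts in spleen WT replicate 1, and 0 counts in every other library outside the small intestine. Its mean of 64.1 ± 30.05 CPM (SD, n = 4) was at least 597-fold higher than in the kidney and at least 455-fold higher than in the heart. The 4 small intestine libraries stood above all 16 others for both Cdx genes.

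Pdx1, the homeobox factor of duodenum and pancreas, had 2352 counts in small intestine WT replicate 2 and 1580 in KO replicate 2, and 0 counts in WT replicate 1 and KO replicate 1. Outside the small intestine it had 4 counts in heart KO replicate 2 and 0 counts in all other libraries. The organ mean of 39.0 ± 46.4 CPM (SD, n = 4) therefore describes no library, with 91.8 and 64.3 CPM in replicate 2 and none in replicate 1. Its calls against the liver, spleen, kidney and heart rested on the 2 replicate 2 libraries and were lost when any 1 library of the organs compared was left out, other than small intestine WT replicate 1 or KO replicate 1. Without a liver or spleen library the adjusted p was 0.103 to 0.142, and without small intestine WT replicate 2 the fitted log2 fold change against the liver was 6.49 with an adjusted p of 0.9999.

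Gata4 (ENSMUSG00000021944, chromosome 14 from 63198922 to 63271692, minus strand) is a zinc finger factor of heart muscle and of the proximal gut. The heart held 50.8, 59.5, 63.1 and 58.6 CPM in WT replicates 1 and 2 and KO replicates 1 and 2, a mean of 58.0 ± 5.16 CPM (SD, n = 4). The small intestine held 0.713, 102.1, 1.85 and 81.0 CPM in the same order, so that 2 libraries lay above every heart library and 2 below every liver library. The liver was even, at 12.4 ± 0.747 CPM, the spleen was at 0.0808 ± 0.0568 CPM, and the kidney had 2 counts in 4 libraries. Small intestine and heart differed by a log2 fold change of -0.31 (SE 1.05, adjusted p = 0.853), and small intestine and liver by 1.90 (SE 1.09, adjusted p = 0.170). With the replicate 1 libraries of the small intestine alone the difference from the liver was -3.40, and with the replicate 2 libraries alone it was 2.88. Both passed the thresholds for a call, but these subsets were chosen after the split by number had been seen and do not test it. Leaving out 1 replicate 1 library of the small intestine also gave a call against the liver (2.40 without WT, adjusted p = 0.0344, and 2.39 without KO, adjusted p = 0.0755). From the heart the difference was -5.52 with replicate 1 alone and 0.67 with replicate 2 alone, and it was called without WT replicate 2 (-3.25, adjusted p = 0.0196), so the place of the small intestine in the order of organs changed with the library number.

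Gata6 (ENSMUSG00000005836, chromosome 18), the GATA factor of endoderm and mesoderm that the intestine keeps along its length, was at 35.8, 96.9, 35.2 and 112 CPM in small intestine WT replicates 1 and 2 and KO replicates 1 and 2. The heart followed with 27.7, 57.0, 38.7 and 50.5 CPM in that order of libraries. Their ranges overlapped, and the difference was a log2 fold change of 0.71 (SE 0.39, adjusted p = 0.134). It was called without small intestine KO replicate 1 (1.01) and without heart WT replicate 2 (1.15). With the replicate 2 libraries of the small intestine alone it was 1.28, and with the replicate 1 libraries alone -0.18. These subsets were chosen after the split by number had been seen and do not test it. Below them came the liver at 7.76 ± 1.33 CPM, the spleen at 2.98 ± 0.204 CPM and the kidney at 1.61 ± 0.549 CPM (SD, n = 4 each). Gata6 was the 1 member counted in all 20 libraries with at least 29 counts. On the opposite strand Gata6os shares 93 exon bases with it, 1.43% of the exon bases of Gata6.

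Hnf4a (ENSMUSG00000017950, chromosome 2 from 163506808 to 163572910, plus strand), the nuclear receptor of hepatocytes, enterocytes and the proximal tubule, had the highest CPM of the 8 genes in the small intestine, liver and kidney, by organ mean. It was at 470, 781, 601 and 748 CPM in the liver, at 646, 460, 726 and 460 CPM in the small intestine and at 409, 495, 486 and 431 CPM in the kidney, each in the order WT replicates 1 and 2, KO replicates 1 and 2. The 3 organs overlapped. The log2 fold change of the small intestine was -0.18 against the liver (SE 0.64, adjusted p = 0.886) and 0.37 against the kidney (SE 0.64, adjusted p = 0.678), and a difference near 2-fold could not be told from none with these errors. In the heart 3 libraries had 1 to 5 counts and 1 had none. The spleen libraries had 0.154, 5.44, 1.12 and 0.634 CPM. The high library, WT replicate 2, held 0.837% of the mean liver level of Hnf4a and a median of 1.34% of the liver level of 8 hepatocyte genes, and the part of these liver transcripts in the spleen value of Hnf4a was not tested.

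Hnf4g (ENSMUSG00000017688, chromosome 3 from 3508030 to 3658052, plus strand), the paralogue that is strong in enterocytes, was at 245, 281, 364 and 168 CPM in the small intestine. It reached 6.47 ± 2.53 CPM in the kidney and 1.61 ± 0.455 CPM in the liver (SD, n = 4), had 9 counts in 1 spleen library and 0 counts in the heart. The spleen library was KO replicate 1, which also held the nephron genes at 47.2 CPM. It held the spleen counts of Cdx2 too, a gene with 0 counts in every kidney library. The part of RNA of other organs in these values was not tested. The small intestine was higher than the kidney by a log2 fold change of 5.42 (SE 0.52, adjusted p = 8.76e-06) and than the liver by 7.37 (SE 0.58, adjusted p = 1.40e-06), and at least 1876-fold higher than the heart. In TPM the small intestine held 313 ± 112 of Hnf4a and 264 ± 104 of Hnf4g, whereas the liver held 217 ± 27 and 0.995 ± 0.250 and the kidney 269 ± 39.4 and 6.82 ± 1.86. Per length, then, both paralogues were at a similar level in the small intestine, and Hnf4a was well above Hnf4g in the liver and kidney.

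Foxa2 (ENSMUSG00000037025, chromosome 2 from 148042877 to 148046969, minus strand), the forkhead factor of definitive endoderm, was at 40.1, 14.3, 56.7 and 36.6 CPM in the liver and at 3.28, 1.99, 1.38 and 1.42 CPM in the small intestine. It was lower in the small intestine than in the liver by a log2 fold change of -4.20 (SE 0.46, adjusted p = 6.01e-06) and higher than in the spleen by 2.89 (SE 0.47, adjusted p = 1.93e-04). The kidney had 3 counts and the heart 5 counts over 4 libraries each. Foxa2 was the only member called lower in the small intestine than in another organ with all 20 libraries. The log2 fold change of Gata4 was -3.40 against the liver with the replicate 1 libraries of the small intestine alone. Against the heart it was -3.25 without small intestine WT replicate 2.

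Neighbours in each gene's order of organ levels were also compared one step at a time by an exact two-sided permutation test of the 4 against 4 libraries. Of 27 such pairs with a count in either organ, 13 (48.1%) did not overlap, beside 27.9% of 89367 such pairs over all genes tested between organs. These 13 gave 0.0286, the smallest p this design allows, which adjusted over the 27 pairs is 0.0593. After adjustment these 13 steps pass the threshold of 0.1 used for calls here and not one of 0.05. The steps that overlapped were the top pair of Gata4 (heart and small intestine, p = 0.429), its second pair (small intestine and liver, p = 0.914), the top pair of Gata6 (p = 0.343), both upper steps of Hnf4a (p = 0.429 and 0.200 by the exact test), its lowest pair (spleen and heart, p = 0.0571), the top pair of Pdx1 (p = 0.429), and steps among organs at a few counts.

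For a wider view, 22 other transcription factors of endoderm and gut were followed. Against the liver 8 were higher in the small intestine, 7 lower and 7 not called, so that 68.2% were called beside 46.3% of all genes, with a median log2 fold change of -0.15 beside 0.19 over all genes. Against the spleen 17 were higher and 2 lower, beside 49.5% of all genes called, against the kidney 13 and 3, beside 45.7%, and against the heart 17 and 2, beside 53.5%. With genes at 0 in an organ set to their lower bounds the medians were 6.55, 4.02 and 6.48 for these 3 organs, beside -0.10, 0.00 and 0.05 over all genes. Isx, an intestinal homeobox repressor, averaged 112 CPM in the small intestine and at most 0.0238 CPM elsewhere. Klf5, a factor of crypt proliferation, averaged 407 CPM in the small intestine and at most 2.47 CPM elsewhere. Gata5, the remaining endodermal GATA factor, averaged 76.99 CPM in the small intestine and 0.920 CPM in the heart. Creb3l3, a factor of lipid metabolism, was at 257 to 345 CPM in the liver. In the small intestine it was at 34.7 and 76.0 CPM in replicate 1, below every liver library, and at 575 and 545 CPM in replicate 2, above every liver library. Of the other 4 GATA genes, only Gata5 was higher in the small intestine than in the liver by the test. Of 10 cardiac factors, which include Nkx2-5 and Tbx5 as partners of Gata4 in the heart, 7 were lower in the small intestine than in the heart, 2 higher and 1 not called, where 53.5% of all genes were called.

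Genes with the most similar pattern were found by Pearson's r of log2 CPM over the 20 libraries, which describes likeness over 5 organs and carries no test, since libraries of an organ share it. Cdx1 ran closest with Prss32 (r = 0.998) and Cdx2 with Acer1 (r = 0.998). Hnf4a ran closest with 9130016M20Rik (r = 0.990) and Anks4b (r = 0.990), and Hnf4g with Clec2h (r = 0.988). Foxa2 ran closest with Cyp3a59 (r = 0.973), Gata4 with Homer2 (r = 0.957), Gata6 with 6430710C18Rik (r = 0.948) and Pdx1 with Slc23a2 (r = 0.928). The Pdx1 value was the lowest of the 8, and it rests on 2 libraries with a level.

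The second comparison set replicate 2 against replicate 1 within the small intestine, each number holding 1 WT and 1 KO library. Pdx1, Gata4 and Gata6 were higher in replicate 2, Cdx1 and Cdx2 were lower, and Hnf4a, Hnf4g and Foxa2 did not pass the test. Thus 5 of 8 members were called, beside 8.60% of 17680 genes tested. With 1 library left out the members called were 2 to 4, with 2 (Pdx1 and Gata4) without KO replicate 2 and 3 without WT replicate 2, and the 1521 genes called overall became 402 and 427 without these libraries and 2360 without KO replicate 1. The split was known from earlier results of these data, so it is described here and not offered as an independent finding.

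**Figure D2:**
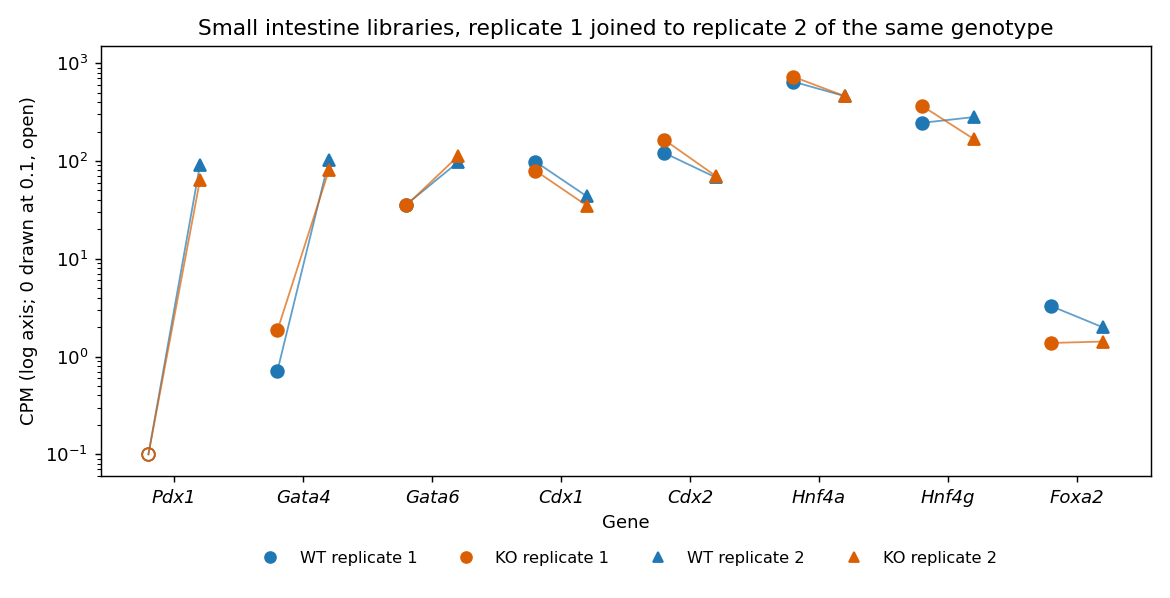
CPM (log axis) of the 8 genes in the 4 small intestine libraries, with a line from replicate 1 (circle) to replicate 2 (triangle) of the same genotype, and open symbols for 0 counts. Pdx1, Gata4 and Gata6 are higher in replicate 2 in WT and KO, Cdx1, Cdx2 and Hnf4a are lower there in both, and Hnf4g and Foxa2 differ in direction between genotypes.

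Pdx1 had 0 counts in both replicate 1 libraries and 91.8 CPM in WT and 64.3 CPM in KO of replicate 2, and was at least 804-fold higher (adjusted p = 0.00415, edgeR). Gata4 was at 0.713 CPM in replicate 1 and 102.1 CPM in replicate 2 of WT, a ratio of 143, and at 1.85 and 81.0 CPM in KO, a ratio of 43.9, with a log2 fold change of 6.22 (SE 0.51, adjusted p = 0.00852). The lower ratio in KO came with the higher replicate 1 value. That library, KO replicate 1, also held cardiomyocyte RNA at 0.578% of the heart level, led by Myl2 at 170 CPM, while its Gata4 was at 3.18% of the heart level and that of WT replicate 1 at 1.23%. The part of heart RNA in this Gata4 value was not tested. Gata6 was at 35.8 and 96.9 CPM in WT and at 35.2 and 112 CPM in KO, a log2 fold change of 1.58 (SE 0.18, adjusted p = 0.0163), and both replicate 2 libraries lay above both replicate 1 libraries. Leaving out KO replicate 2 moved its adjusted p to 0.104.

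Cdx1 differed the other way, with 98.5 CPM in replicate 1 and 43.4 CPM in replicate 2 of WT and 79.6 and 34.9 CPM in KO, so that replicate 1 was 2.27 and 2.28 times replicate 2. Its log2 fold change was -1.16 (SE 0.23, adjusted p = 0.0577). Cdx2 was at 121 and 165 CPM in replicate 1 and at 67.8 and 69.98 CPM in replicate 2, a log2 fold change of -1.01 (SE 0.20, adjusted p = 0.0552). Both calls lie close to the thresholds, and both were lost in a single fit of 20 libraries (adjusted p = 0.182 and 0.170) and when either WT replicate 2 (0.195 and 0.281) or KO replicate 2 (0.341 and 0.298) was left out. Cdx1 was lost too without WT replicate 1, where its log2 fold change was -0.94, and Cdx2 without KO replicate 1, at -0.82.

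Hnf4a was at 646 and 726 CPM in replicate 1 and at 460 CPM in both replicate 2 libraries, a log2 fold change of -0.55 (SE 0.21, adjusted p = 0.213) that did not pass. Hnf4g differed in direction between genotypes, with 245 and 281 CPM in WT and 364 and 168 CPM in KO (log2 fold change -0.40, SE 0.33, adjusted p = 0.543). Foxa2 was low throughout, at 3.28 and 1.38 CPM in replicate 1 and 1.99 and 1.42 CPM in replicate 2 (log2 fold change -0.44, SE 0.66, adjusted p = 0.756).

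Compared per length, the order of the members within a library differed between numbers. In both replicate 1 libraries Hnf4a and Hnf4g led, Cdx1 and Cdx2 followed at 132 to 211 TPM, Gata6 was at 15.6 and 15.7 TPM, and Foxa2, Gata4 and Pdx1 closed the order at under 4 TPM. In replicate 2 Pdx1 took rank 3 in WT at 94.3 TPM, ahead of Cdx2 at 66.5 TPM, and rank 4 in KO at 70.5 TPM, just behind Cdx2 at 73.3 TPM. Gata4 took rank 5 in both, at 58.0 and 49.1 TPM, above Cdx1 at 55.0 and 47.2 TPM and Gata6 at 33.0 and 40.6 TPM. Of these 2 GATA members, Gata6 was therefore the higher per length in replicate 1 and Gata4 in replicate 2. Gata5, which is not one of the 8 genes, was at 63.8 and 83.9 TPM in replicate 1, above both, and at 46.7 and 51.0 TPM in WT and KO replicate 2, near Gata4.

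Genes around Pdx1 and Cdx2, all those within 100000 bases on either side, were chosen by position after the values of the members had been seen. Plut, the antisense RNA whose span overlaps that of Pdx1 with no exon base in common, had 65 and 60 counts in WT and KO replicate 1 and 3659 and 2681 counts in replicate 2, a log2 fold change of 5.998 (SE 0.27, adjusted p = 0.00239). Gm27033, which lies between Pdx1 and Cdx2, had 0 counts in replicate 1 and 982 and 682 counts in replicate 2. Plut was thus counted in the replicate 1 libraries in which Pdx1 was not. Neither gene had a count in another organ. The third ParaHox gene, Gsx1, had 0 counts in all 20 libraries, and Urad, next to Cdx2 on its other side, had at most 17 counts in a small intestine library and at least 963 in a liver library. Cdx2 was therefore the 1 gene of this stretch with over 100 counts in replicate 1, and the group Plut, Pdx1 and Gm27033 shared the higher level in replicate 2.

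**Figure D3:**
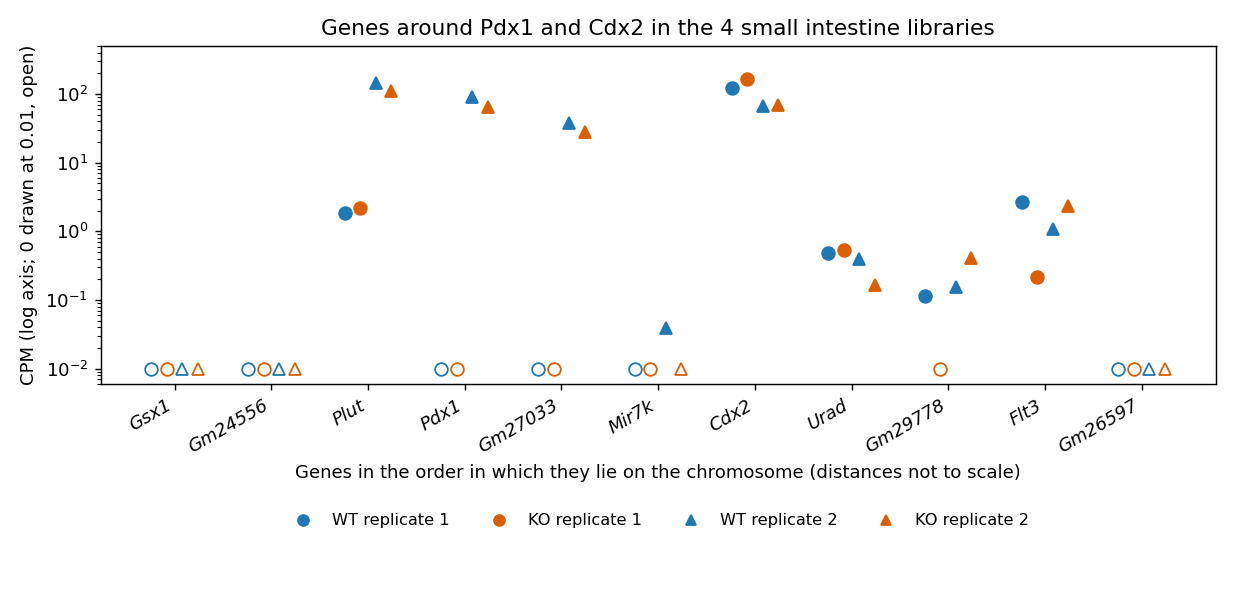
CPM (log axis) of the genes around Pdx1 and Cdx2 in the 4 small intestine libraries, in chromosome order with distances not to scale, and open symbols for 0 counts. Plut, Pdx1 and Gm27033 stand higher in replicate 2 (triangles), Cdx2 is at 67.8 to 165 CPM in all 4 libraries and lower in replicate 2, and Gsx1 is at 0.

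Antisense partners of 2 other members were higher in replicate 2. Gata6os was at 3.45 and 3.95 CPM in replicate 1 and 13.7 and 22.8 CPM in replicate 2, a log2 fold change of 2.33 (SE 0.39, adjusted p = 0.0373) in the direction of Gata6. Hnf4aos was at 0.884 and 1.01 CPM in replicate 1 and 5.62 and 6.34 CPM in replicate 2, a log2 fold change of 2.68 (SE 0.48, adjusted p = 0.0438), whereas Hnf4a itself was lower in replicate 2 without passing the test. If the reads were counted without strand, as the stored command reads, a gene and its antisense partner could not be told apart over shared exon bases, which are 93 for Gata6 and 0 for Hnf4a and Pdx1.

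Genes known for the 2 ends of the small intestine were set beside the members. Of 15 genes of the proximal small intestine edgeR called 13 higher in replicate 2, none lower and 2 not at all, where it called 8.6% of all genes. DESeq2 called all 15 higher, where it called 2312 of all 17680 genes. The median log2 fold change was 5.12 beside -0.05 over all genes. Lct, which encodes lactase, had 0.0285 and 0.145 CPM in WT and KO replicate 1 and 672 and 1862 CPM in replicate 2, and Slc40a1, the iron exporter, had 133 and 58.6 CPM against 2297 and 1424 CPM. Of 9 genes of the distal small intestine edgeR called 8 lower in replicate 2 and did not call 1, Cubn. DESeq2 called all 9 lower, and the median was -3.16. The lists were written with this split known. Fabp6, the ileal bile acid binding protein, was at 6680 and 6251 CPM in replicate 1 and at 0.234 and 0.407 CPM in replicate 2, and Slc10a2, the ileal bile acid transporter, at 2513 and 4030 CPM against 4.53 and 8.13 CPM. Both replicate 1 libraries therefore held high levels of ileal genes with Cdx1 and Cdx2 at their higher levels, and both replicate 2 libraries held proximal genes with Pdx1 and Gata4.

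Downstream genes of the members did not all follow the level of their factor. Of 10 genes known as HNF4 targets edgeR called 4 higher in replicate 2 (Mttp, Apoa4, Apoc2 and Apoc3, of lipoprotein assembly) and none lower. That is 40% of the list beside 8.6% of all genes. DESeq2 called 6 higher, Apoa1 and G6pc as well, and none lower, beside 2312 of all 17680 genes. The median log2 fold change was 2.06, although neither Hnf4a nor Hnf4g passed the test. Mttp was at 672 and 666 CPM in replicate 1 and at 3270 and 4251 CPM in replicate 2. Apoa4 and Apoa1 are also in the proximal list. Of 6 genes known as CDX targets Lct, which is also in the proximal list, was higher, Muc2, the goblet cell mucin, was lower and 4 were not called, with a median of 0.32. Muc2 was at 2324 and 1671 CPM in replicate 1 and at 870 and 899 CPM in replicate 2 (log2 fold change -1.15, SE 0.29, adjusted p = 0.0979), and Cdh17, an intestinal cadherin, at 1797 and 2269 CPM against 2171 and 1959 CPM.

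Among the 22 other endoderm and gut factors, 20 were tested between the numbers. Of these, 2 were higher in replicate 2, 4 lower and 14 not called, a larger called share than the 8.6% of all genes. The median log2 fold change was -0.36 beside -0.05 over all genes. Onecut2, a factor of liver and duodenum, was higher by a log2 fold change of 9.03 (SE 0.37, adjusted p = 0.00239), and Creb3l3 was at 34.7 and 76.0 CPM in replicate 1 and at 575 and 545 CPM in replicate 2. The lower genes included the bile acid receptor Nr1h4, Prox1 and Nr5a2. Nr1h4 was at 373 and 428 CPM in replicate 1 and at 60.0 and 41.3 CPM in replicate 2. Gata5, by contrast, was at 73.5, 94.9, 68.9 and 70.6 CPM in WT and KO replicate 1 and WT and KO replicate 2, with a log2 fold change of -0.24 (SE 0.19, adjusted p = 0.521). Of the 3 endodermal GATA genes, Gata4 and Gata6 were therefore called and Gata5 was not, and the difference between them was not tested.

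**Figure D4:**
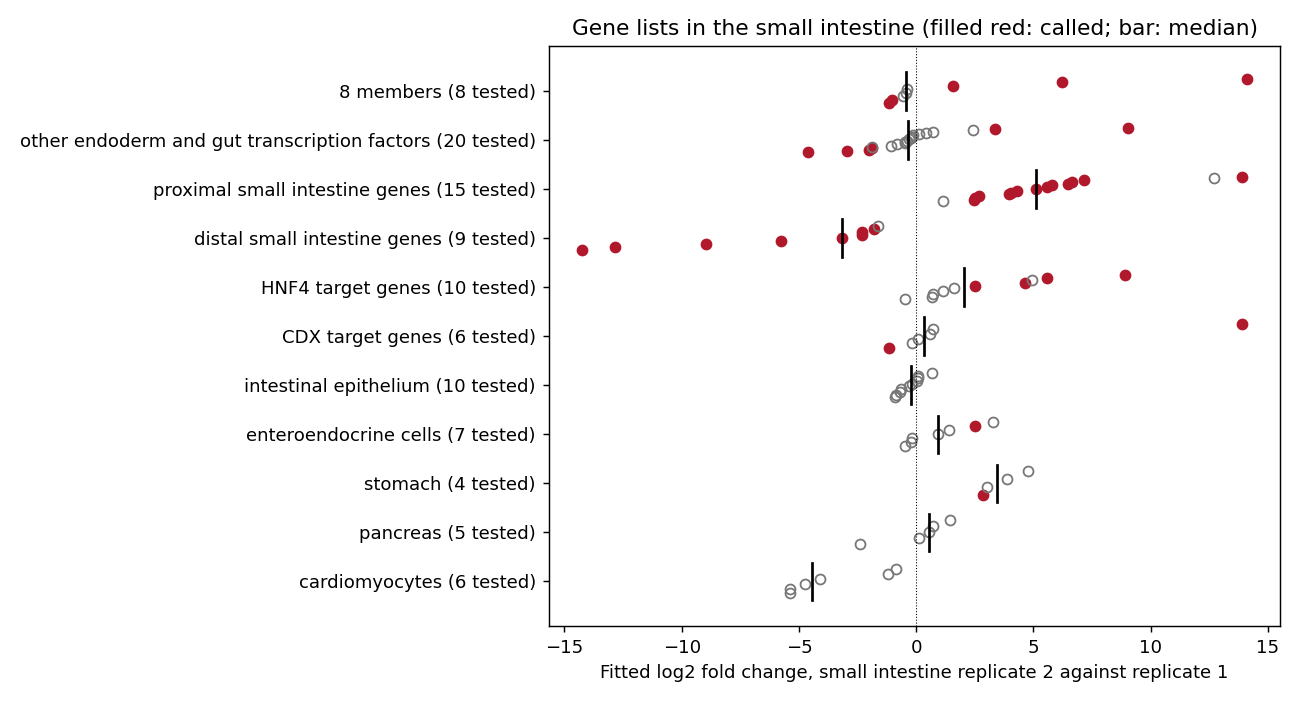
Fitted log2 fold change of replicate 2 against replicate 1 in the small intestine for the 8 genes and 10 lists, with filled red points for called genes, open points for the rest and a bar at the median of each list. The proximal list has its median at 5.12, the distal list at -3.16 and the epithelial list at -0.23, and the 8 genes spread on both sides of 0.

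Markers of the cell types that a piece of gut can hold were followed in the same 4 libraries, given here in the order WT replicate 1, KO replicate 1, WT replicate 2, KO replicate 2. Of all 17680 genes tested between the numbers edgeR called 8.6% and DESeq2 called 2312. None of 10 epithelial genes was called by edgeR or DESeq2, 4 had an unadjusted p under 0.05, the median log2 fold change was -0.23, and the sums were 20294, 25209, 24433 and 23168 CPM. For Pdx1 the neighbouring sources are pancreas and stomach. The 17 pancreas genes summed to 32.8, 45.9, 45.7 and 51.8 CPM, led by Clps, and of the 5 that could be tested none was called by edgeR or DESeq2 and 1 had an unadjusted p under 0.05. The stomach genes summed to 4.59, 3.005, 75.3 and 13.1 CPM, higher in replicate 2 in both genotypes as Pdx1 was, and were led in WT replicate 2 by Gkn2 at 31.3 CPM. Pdx1 was at 91.8 and 64.3 CPM in WT and KO replicate 2. Of 4 stomach genes tested edgeR called 1 higher, the hormone gene Ghrl, and DESeq2 4, and of 7 enteroendocrine genes tested edgeR called 1 higher in replicate 2, the granin gene Chgb, at 16.6 and 15.1 CPM against 84.1 and 91.3 CPM, and DESeq2 2, Chgb and Chga. The colon genes summed to 60.9, 67.0, 8.19 and 24.7 CPM. Of 5 tested edgeR called 2 lower in replicate 2, among them Insl5, and 1 higher, Aqp8, with a median log2 fold change of -4.60, and DESeq2 called 4 lower and 1 higher. Among 7 endothelial, 5 mesothelial, 3 nephron, 6 cardiomyocyte and 8 immune genes tested edgeR called none, unadjusted p-values were under 0.05 for 2, 2, 1, 1 and 1 of them, and DESeq2 called 2, 1, 1, 2 and 0. Of 8 hepatocyte genes Cyp2e1 was lower. The shares of tested genes called by edgeR were thus 60% for colon, 25% for stomach, 14.3% for enteroendocrine and 12.5% for hepatocyte genes. Smooth muscle genes summed to 498, 3214, 770 and 1947 CPM, higher in both KO libraries than in both WT libraries, and none of 8 was called between the numbers by edgeR or DESeq2 or had an unadjusted p under 0.05. Ms4a1, a B cell gene, was at 96.3, 0.652, 0.0780 and 13.4 CPM, and Alb at 53.7, 7.82, 9.13 and 15.4 CPM. The part of these cell types in the levels of the members was not tested.

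The same contrast of numbers in the other organs gave a background without any gut position. In the heart 2 members could be tested and edgeR called none of them, beside 4.92% of genes. In the liver it was none of 5, beside 0.0127%, in the kidney none of 3, beside 0%, and in the spleen none of 3, beside 0%. Over all genes these counts moved when 1 library was left out, to 3735 in the kidney without KO replicate 2 and 61 without WT replicate 2. They reached 117 in the liver and 79 in the spleen, both without KO replicate 2, and fell from 818 to 512 in the heart without KO replicate 1. Foxa2 in the liver was called without KO replicate 2 (-1.76, adjusted p = 0.0216). At an unadjusted p under 0.05 there was 1 member, Gata6 in the heart, and DESeq2 called none in these 4 organs. Over all genes the unadjusted p was under 0.05 for 493 genes in the spleen and 1036 in the kidney, where DESeq2 called 41 and 6. Gata6 in the heart was at 27.7 and 38.7 CPM in replicate 1 and at 57.0 and 50.5 CPM in replicate 2, a log2 fold change of 0.68 (SE 0.18, adjusted p = 0.0509) that stayed under the 2-fold threshold. The replicate 2 libraries of the heart held 36090637 and 41763236 counts and the replicate 1 libraries 17959542 and 15897446, and the column headers of both replicate 2 libraries of the heart, and of no others, carry the added letters pre, whose meaning is not given in the sources used here. The part of this depth or of what that mark stands for in the Gata6 value was not tested. Gata4 in the heart was even, with a log2 fold change of 0.04 (SE 0.15, adjusted p = 0.904). Hnf4a in the kidney differed by 0.03 (SE 0.34, adjusted p = 0.980) and in the liver by 0.49 (SE 0.24, adjusted p = 0.954). In the spleen it differed by 2.30 (SE 1.53, adjusted p = 0.9996), with 207 of 291 counts in WT replicate 2, the library that held hepatocyte RNA.

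The difference between organs in the effect of the number was tested itself, as the small intestine effect minus the mean of those in the other 4 organs, which called 7.34% of 23159 genes. For Gata6 it was a log2 difference of 1.203 (SE 0.27, adjusted p = 0.0152) and for Hnf4a -0.80 (SE 0.99, adjusted p = 0.834), the latter with the spleen value above and a heart with 10 counts among the organs averaged. It could not be estimated for the other 6 members, because each had an organ and number with 0 counts.

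The third comparison set KO against WT, the contrast for which the mice were made. No member was called in any organ by edgeR with all 4 libraries of the organ, none had an unadjusted p under 0.05, and DESeq2 called none either. Levels allowed a test of all 8 members in the small intestine, 2 in the heart, 3 in the kidney, 5 in the liver and 3 in the spleen. Over all genes the calls were 0% in the small intestine, 0% in the heart, 0% in the kidney, 0.0509% in the liver and 0.223% in the spleen. With 1 library left out these calls moved from 0 genes to up to 2938 in the kidney and 22 in the heart, from 8 to between 2 and 205 in the liver and from 42 to between 0 and 371 in the spleen, with each of the highest counts reached without WT replicate 1. Without that library Foxa2 was called in the liver (log2 fold change 1.70, adjusted p = 0.0474) and Hnf4a in the spleen (-2.62, adjusted p = 0.0217), the latter against WT replicate 2 with its hepatocyte RNA alone. An unadjusted p under 0.05 was found for 422 genes in the small intestine, 112 in the kidney and 117 in the heart, and DESeq2 called 61, 0 and 2.

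In the small intestine the number split the genotypes from within, so the errors of this comparison were wide, with an SE of 3.38 on the log2 scale for Pdx1 and 2.38 for Gata4. Within a number the genotypes lay closer for Pdx1, Gata4, Gata6, Hnf4a, Cdx1 and Cdx2, but not for Hnf4g or Foxa2. KO was 0.808 and 0.804 times WT for Cdx1 in replicates 1 and 2, 1.36 and 1.03 times for Cdx2, 0.981 and 1.15 times for Gata6 and 1.12 and 1.001 times for Hnf4a. It was 0.700 times WT for Pdx1 in replicate 2, 2.59 and 0.793 times for Gata4, 1.49 and 0.597 times for Hnf4g and 0.420 and 0.715 times for Foxa2. Cdx1 and Foxa2 were lower in KO within both numbers, Cdx2 was higher, Hnf4a was higher in replicate 1 and level in replicate 2, and Gata4, Gata6 and Hnf4g changed direction between numbers. In the heart the log2 fold change of KO against WT was 0.12 for Gata4 (SE 0.24) and 0.05 for Gata6 (SE 0.37). In the kidney it was 0.02 for Hnf4a (SE 0.36), -0.60 for Hnf4g (SE 0.52) and 0.12 for Gata6 (SE 0.63). In the liver it was 0.11 for Hnf4a (SE 0.29), 0.80 for Foxa2 (SE 0.52) and -0.31 for Hnf4g (SE 0.52). Gata4 and Gata6 in the liver were at -0.12 (SE 0.23) and -0.28 (SE 0.29). In the spleen it was -1.33 for Foxa2 (SE 0.76), -1.65 for Hnf4a (SE 1.82) and 0.02 for Gata6 (SE 0.33). Effects smaller than the 2-fold threshold could not be called for any member, since the rule for calls leaves them out whatever the errors. In the small intestine smooth muscle genes summed to 498 and 770 CPM in WT and 3214 and 1947 CPM in KO. None of these 8 genes was called between genotypes, with a median log2 fold change of 2.05, and the part of this in the values of the members was not tested.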

How the data were processed

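Per the labels and the methods of the study, RNA of 5 organs was sequenced as read pairs from stranded libraries made after mRNA capture. The authors trimmed reads with cutadapt, mapped them with HISAT2 2.1.0 and counted them with featureCounts 2.0.1 over exons of the Ensembl annotation GRCm38.102, as the methods and the submitters' processing notes give it, and deposited raw counts per gene and library without normalization, with the exon length of each gene (another unit, in bases). The methods print GRCh38 as the genome where the labels give mm10, and they state strand and pair options that the stored command lacks, so mates of a pair may have been counted separately. Libraries were grouped by the organ, genotype and replicate number of the labels. All 20 columns were used and 0 were left out.

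The 8 genes and all gene lists were chosen with earlier results of these data known. From the counts, CPM after TMM scaling over all 20 libraries and TPM were computed here. Tests were edgeR 4.0.16 (R 4.3.3) quasi-likelihood tests with TMM factors, filterByExpr and robust estimation, fitted on the whole table with Benjamini-Hochberg adjustment over all genes tested. Organs were compared in 1 fit of 20 libraries with groups of organ and genotype, and replicate numbers and genotypes within the 4 libraries of an organ. Calls needed more than a 2-fold difference at an adjusted p under 0.1, thresholds taken from the methods of the study, which name DESeq2 (1.42.0 here, as an alternative). Standard errors were derived from the log2 fold change and its F statistic. A fitted fold change against a group at 0 counts is no bound, so bounds used 3 counts in each library. The exact permutation tests used scipy 1.17.1. The fits were first checked on simulated data.

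Genes named are the 8 genes, the genes most like each by Pearson's r among genes with a CPM over 1 in at least 4 libraries (prior count 2), and up to 4 genes with the highest mean level per list. The neighbours of Pdx1 and Cdx2, the antisense genes and the other list genes named were chosen after their values were seen. The alternatives were DESeq2, RLE size factors, no filter on low counts, an adjusted p under 0.05, no fold threshold, other sets of libraries in the fit, replicate or genotype blocks, limma 3.58.1 on log2(TPM + 0.1) for genes with a TPM over 1, and each library left out in turn. Whether organs came from the same animals is not given, so libraries were treated as independent, and p-values measure the spread between these libraries, which may be technical in part. Precision is set by the spread between libraries, except for members at a few counts. The bisulfite and other experiments of the study were not analysed here. The result of 1 gene of the lists is not reported here.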

Additional observations from a re-analysis of the deposited data

Results flagged for a closer look

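The difference between replicate 2 and replicate 1 differed between organs for Gata6. The effect in the small intestine minus the mean effect in the other 4 organs was 1.203 on the log2 scale (SE 0.27, adjusted p = 0.0152, edgeR interaction test over 20 libraries). It was 1.21 by DESeq2, 1.21 with RLE size factors and 1.19 without a filter on low counts, with adjusted p from 1.55e-04 to 0.0393. Gata6 was higher in replicate 2 in 2 of 2 genotypes of the small intestine and also in 2 of 2 genotypes of the heart, kidney and spleen, and in 1 of 2 of the liver, where WT was lower in replicate 2. No group of 4 libraries held an outlying member value by Dixon's test, among 21 groups with a count of at least 10.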

How the results depend on the processing

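Of the organ comparisons, the counts of members called stayed within 1.5 times of those given under every alternative run. Directions turned for members without a call. Hnf4a against the liver was -0.18 and became 0.47 with limma on log2(TPM + 0.1) and 0.11 with the replicate 1 libraries of the small intestine alone. Gata4 against the liver became -3.40 and Gata6 against the heart -0.18 with the same libraries, and Gata4 against the heart became 0.67 with the replicate 2 libraries alone. These 2 subsets were chosen after seeing the data. Gata4 against the liver was called without a filter on low counts (1.89, adjusted p = 4.44e-08). When each library was omitted, the log2 fold change ranged from -1.12 to 2.40 for Gata4 against the liver, from -3.25 to 0.19 for Gata4 against the heart, from 0.26 to 1.15 for Gata6 against the heart, where it was called without small intestine KO replicate 1 or heart WT replicate 2 and with the replicate 2 libraries alone (1.28, adjusted p = 0.00386), and from -0.35 to 0.067 for Hnf4a against the liver. Gata4 against the liver was negative without small intestine WT replicate 2 or KO replicate 2 and called without WT replicate 1 (2.40) or KO replicate 1 (2.39), and Gata4 against the heart was called without WT replicate 2 (-3.25).

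Between the numbers in the small intestine, 5 members were called, 3 with an adjusted p under 0.05, 3 in 1 fit of all 20 libraries, and 2 to 4 with 1 library left out. The 2 were found without KO replicate 2. In the heart 1 member, Gata6, was called with no fold threshold. In the liver 0 to 1 members were called with 1 library left out, the 1, Foxa2, without KO replicate 2. In the small intestine Foxa2 ranged from -0.95 to 0.39 with 1 library left out. Over all genes 1521 were called, 2312 by DESeq2, 2450 in 1 fit of 20 libraries, 881 with an adjusted p under 0.05 and 402 to 2360 with 1 library left out. In the other organs edgeR called 818 genes in the heart, 2 in the liver, 0 in the spleen and 0 in the kidney, DESeq2 called 55, 41 and 6 in the last 3, no filter gave 126, 218 and 578, and no fold threshold gave 2686 in the heart, where 1 fit of 20 libraries gave 190. With 1 library left out these counts ranged from 512 to 1001 in the heart, 1 to 117 in the liver, 0 to 79 in the spleen and 0 to 3735 in the kidney. A genotype block gave 11 in the liver and 1 in the spleen. Without the filter the calls include genes at a few counts.

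For KO against WT, members called ranged from 0 to 1 in the liver and from 0 to 1 in the spleen with 1 library left out, the 1 without WT replicate 1 in both (Foxa2 and Hnf4a), and none was called otherwise. The direction in the small intestine changed for 7 members. The ranges were -4.92 to 5.83 for Gata4, -1.04 to 0.99 for Gata6, -0.28 to 0.30 for Hnf4a and -0.67 to 0.35 for Hnf4g. They were -13.44 to 12.89 for Pdx1, -1.04 to 0.33 for Cdx1 and -0.45 to 0.72 for Cdx2. Leaving out 1 library leaves the numbers unequal between genotypes, and the part of this in the ranges was not tested. Over all genes no filter gave 122 calls in the liver, 313 in the spleen and 13 in the heart beside 8, 42 and 0, DESeq2 56, 219 and 2, and 1 library left out 2 to 205, 0 to 371 and 0 to 22, with 1 to 2938 in the kidney beside 0. In 1 fit of 20 libraries the liver and spleen gave 0 and 0.

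The replicate numbers of the labels are shared by the groups, and the labels do not say that a number marks an animal or a batch, although the headers set both replicate 2 libraries of the heart apart. The differences between replicate 2 and 1 in WT and KO correlated across 17951 genes with r = 0.482 in the small intestine, 0.315 in the heart, 0.14 in the kidney, 0.0378 in the liver and 0.0239 in the spleen, with 2 pairs an organ. With the number as a replicate block, KO against WT turned for Gata4 in the small intestine to 0.31 (adjusted p = 0.947), 20 genes were called in the liver and 6 in the heart, and no member was called. RLE size factors moved the median over all genes by 0.05 to 0.08 on the log2 scale in the organ comparisons. Libraries of 15897446 to 44508197 counts limit what can be said of Pdx1, Cdx1 and Cdx2 outside the small intestine to the floor of 3 counts.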
